A study of Mus musculus with 6 samples.

Results

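The 10 genes described here mark B cells, lymph nodes and white blood cells and were measured in the gastrocnemius, the main calf muscle, of mice with and without a C26 tumour. They are Cd79b, Fcer2a, Cxcl13, Cd37, Bank1, Siglecg, Ikzf3, Cd52, Coro1a and Ptprc, 10 of the 13363 genes with a deposited value. The genes were chosen by their measured values in these same muscles, where the library labelled control replicate 3 held far more of them than the others, so their levels and the C26 against control differences are given as a description with no test. In all, 3 muscles came from young male Balb/c mice inoculated under the skin of the right flank with C26 cells, a mouse colon adenocarcinoma line that causes cachexia, and 3 from mice of the same strain without tumour cells. The labels give 1 library per muscle and do not say that the muscles came from separate mice, so p-values measure only the spread between these samples. RNA depleted of ribosomal RNA was sequenced as single-end reads of 50 bases. Levels are FPKM, fragments counted relative to transcript length and to the fragments of the whole library, so that genes of unlike length can be compared. Counts of reads were not used here, and the sequencing depth of the 6 libraries is unknown.

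B cells carry a surface antibody that signals through the CD79 chains, and they gather in follicles of lymph nodes under the pull of the chemokine CXCL13. T cells settle beside the follicles along CCL21, and all white blood cells carry CD45, the phosphatase encoded by Ptprc. Resting muscle holds few lymphocytes. The popliteal lymph node lies in the fat behind the knee, between the heads of the gastrocnemius. In RNA from whole muscle, fewer cells of a type and less RNA per cell cannot be told apart.

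Control replicate 3 stood apart from the other 5 muscles. Its level exceeded that of each other muscle by over 4-fold, on the scale log2(TPM + 1), for 207 genes, or 1.55% of those listed, whereas the other 5 muscles had 1 to 22 such genes. The number was 192 with the FPKM as deposited and 321 with a pseudocount of 0.1, both chosen after seeing the data. All 6 muscles carried the RNA of muscle fibres. Ckm, the muscle creatine kinase, ranged from 14314 FPKM in C26 replicate 2 to 26160 FPKM in control replicate 3. The differences are therefore given with and without control replicate 3.

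**Figure D1:**
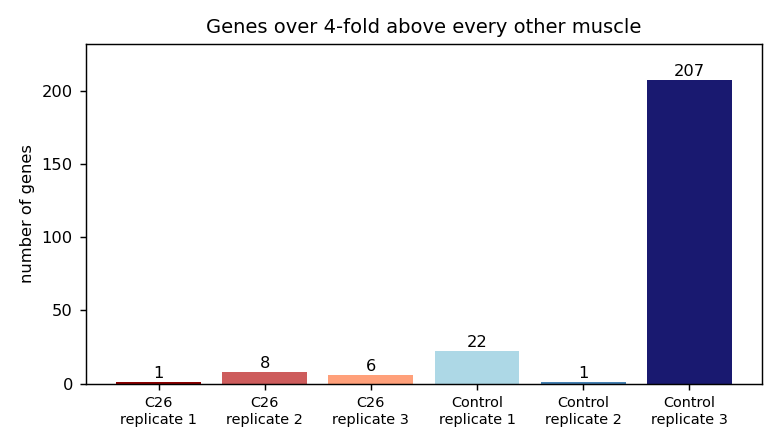
Bars give the number of genes whose level in a muscle exceeded that in each of the other 5 by over 4-fold, on the log2(TPM + 1) scale. Control replicate 3 had 207 such genes and the next muscle, control replicate 1, had 22.

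The upstream sequences of Bank1 and Cxcl13 are shown as a contrast between the genes: Bank1 was high in control replicate 3 alone and Cxcl13 was also high in C26 muscles. Both are the 250 bases before the RefSeq gene start on GRCm38.p6, at chr3:136326067-136326316 on the minus strand for Bank1 and chr5:95956689-95956938 on the plus strand for Cxcl13. Capitals mark the match to CCCNNGGG, the core bound by the B cell factor EBF1.
Bank1: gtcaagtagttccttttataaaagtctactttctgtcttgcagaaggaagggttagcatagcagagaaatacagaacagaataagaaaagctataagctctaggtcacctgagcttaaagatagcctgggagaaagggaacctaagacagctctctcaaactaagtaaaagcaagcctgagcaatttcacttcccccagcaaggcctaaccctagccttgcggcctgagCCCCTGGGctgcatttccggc
Cxcl13: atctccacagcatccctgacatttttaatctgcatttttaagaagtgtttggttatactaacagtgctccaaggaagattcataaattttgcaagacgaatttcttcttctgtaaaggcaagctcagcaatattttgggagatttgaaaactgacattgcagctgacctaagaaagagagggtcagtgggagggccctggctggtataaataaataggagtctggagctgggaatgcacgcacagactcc
RefSeq windows of 250 bases before to 50 after the start were given for 7 of the 10 genes, all but Cd79b, Ikzf3 and Cd52. On either strand, CCCNNGGG was in windows of Bank1 and Coro1a and in 13.7% of all 32851 windows. The ETS motif AGGAAGT was in windows of Cd37 and Ptprc and in 9.35% of all windows. The octamer ATGCAAAT was in 0 of the 7 genes and in 1.74% of all windows. A match describes letters in the window and is not evidence of binding.

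Cd79b, a signalling chain of the B cell receptor (chromosome 11, 106311341 to 106314762, GRCm38), was at 0.82, 0.05 and 0.06 FPKM in C26 replicates 1 to 3 and at 0.11, 0.21 and 134.43 FPKM in control replicates 1 to 3. Control replicate 3 was 164 times the next muscle, C26 replicate 1, and the other 2 controls lay within the C26 range. The group means were 0.31 ± 0.442 FPKM in C26 and 44.9 ± 77.5 FPKM in control muscles (SD, n = 3 each). The difference in log2(TPM + 1), C26 minus control, was -2.23 with all muscles and 0.19 without control replicate 3.

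Fcer2a, the low-affinity IgE receptor CD23 of follicular B cells (chromosome 8, 3681737 to 3694175), was at 0.69, 0.16 and 0.12 FPKM in C26 and at 0.13, 0.14 and 77.32 FPKM in control muscles. Again C26 replicate 1 came next after control replicate 3, at a 112-fold distance, and the groups overlapped. The log2 difference was -1.86 with all muscles and 0.32 without control replicate 3.

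Siglecg, an inhibitory sialic acid-binding receptor of B cells (chromosome 7, 43408204 to 43418358), was at 0.04, 0.04 and 0.05 FPKM in C26 and at 0.04, 0.04 and 17.10 FPKM in control muscles. Its level was thus the same to within 0.01 FPKM in 5 muscles and 342 times the next in control replicate 3, the widest ratio of the 10 genes. Values this low were deposited to 2 decimals, which makes such ratios coarse. The log2 difference was -1.51 with all muscles and 0.02 without control replicate 3.

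Bank1, a scaffold protein of B cell receptor signalling (chromosome 3, 136053363 to 136326066), was at 0.14, 0.02 and 0.02 FPKM in C26 and at 0.19, 0.06 and 19.24 FPKM in control muscles. Ikzf3 encodes Aiolos, a zinc finger factor of lymphocyte maturation (chromosome 11, 98464902 to 98546031). It was at 0.03, 0.01 and 0.02 FPKM in C26 and at 0.03, 0.01 and 8.28 FPKM in control muscles, the lowest level in control replicate 3 among the 10 genes. Both overlapped between the groups and stood in control replicate 3 alone, 101-fold for Bank1 and 276-fold for Ikzf3 above the next muscle. Without control replicate 3 the log2 difference moved from -1.64 to -0.11 for Bank1 and from -1.21 to 0.01 for Ikzf3.

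Cd37, a tetraspanin of mature B cells (chromosome 7, 45233632 to 45239115), was at 1.30, 0.76 and 0.59 FPKM in C26 and at 2.21, 0.50 and 113.73 FPKM in control muscles. The lowest and the highest value were both in controls, so the groups overlapped. Control replicate 3 was 51.5 times control replicate 1, and the log2 difference was -2.12 with all muscles and -0.16 without it.

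Cxcl13, the chemokine that draws B cells into follicles (chromosome 5, 95956951 to 95961068), was at 16.66, 29.13 and 3.04 FPKM in C26 and at 0.11, 0.16 and 68.42 FPKM in control muscles. It was the one gene of the 10 that was high in muscles other than control replicate 3: each C26 muscle was above control replicates 1 and 2, and control replicate 3 was 2.35 times C26 replicate 2. The group means were 16.3 ± 13 FPKM in C26 and 22.9 ± 39.4 FPKM in control muscles (SD, n = 3 each). Its log2 difference was 2.05 with all muscles, 4.17 without control replicate 3, 0.96 without control replicate 1, 1.03 without control replicate 2 and 1.43 without C26 replicate 2, so its size rested on single muscles. It was the only one of the 10 above 0 with all muscles.

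Cd52, a small anchored glycoprotein of lymphocytes (chromosome 4, 134082448 to 134095082), was at 1.78, 0.43 and 0.33 FPKM in C26 and at 2.77, 1.89 and 255.98 FPKM in control muscles. Every control value was above every C26 value, which held for 1 of the 10 genes and for 26.5% of all listed genes. Control replicate 3 was 92.4 times control replicate 1. The log2 difference was -3.14 with all muscles and -1.03 without control replicate 3.

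Coro1a, an actin-binding protein of white blood cells (chromosome 7, 126699773 to 126707787), was at 1.80, 0.83 and 0.73 FPKM in C26 and at 5.03, 1.74 and 231.34 FPKM in control muscles. Ptprc (chromosome 1, 138062861 to 138175708) was at 0.40, 0.23 and 0.24 FPKM in C26 and at 0.81, 0.40 and 40.10 FPKM in control muscles. In both genes control replicate 2 did not exceed C26 replicate 1, so the groups overlapped, and control replicate 1 came next after control replicate 3. The log2 difference moved from -2.96 to -1.0 for Coro1a and from -1.99 to -0.35 for Ptprc when control replicate 3 was left out.

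**Figure D2:**
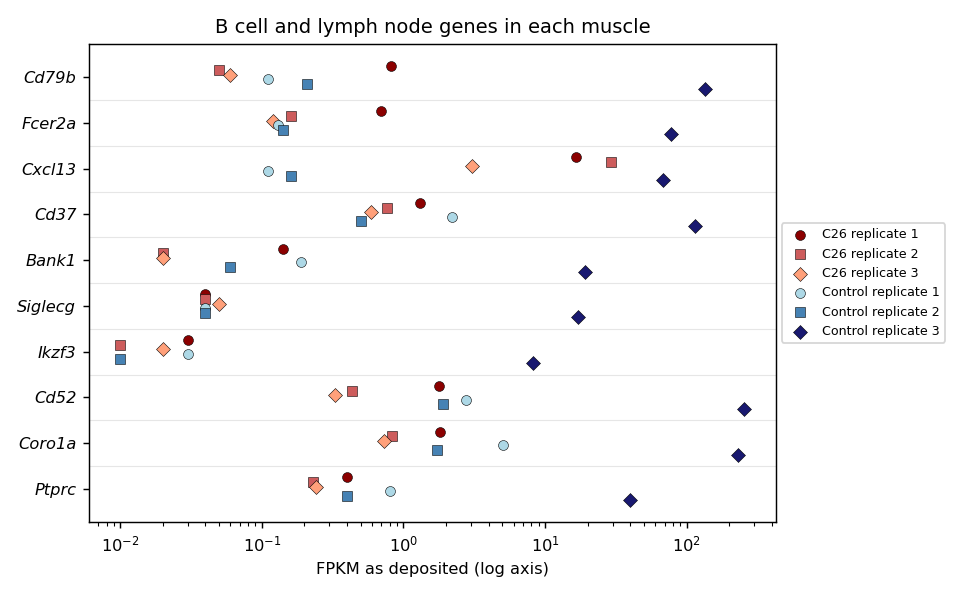
Each point is the FPKM of a gene in 1 muscle on a log axis, with C26 muscles in reds and control muscles in blues. Control replicate 3 is highest for all 10 genes, and Cxcl13 is also above 3 FPKM in the 3 C26 muscles.

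Counts of genes highest or over 4-fold apart in control replicate 3 were made on the log2(TPM + 1) scale unless another is named. Control replicate 3 was the highest muscle for 10 of 10 genes, against 22.0% of all listed genes. It was over 4-fold above each other muscle for 9, all but Cxcl13, against 1.55%. These values chose the genes and nothing is read from the counts. In FPKM, the control SD exceeded the control mean for all 10. The median log2 difference of the 10 was -1.93 with all muscles and -0.05 without control replicate 3, and that of all listed genes was -0.05 and -0.03. Of the C26 muscles, replicate 1 was highest in FPKM for 8 of the 10 genes, all but Cxcl13 and Siglecg.

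**Figure D3:**
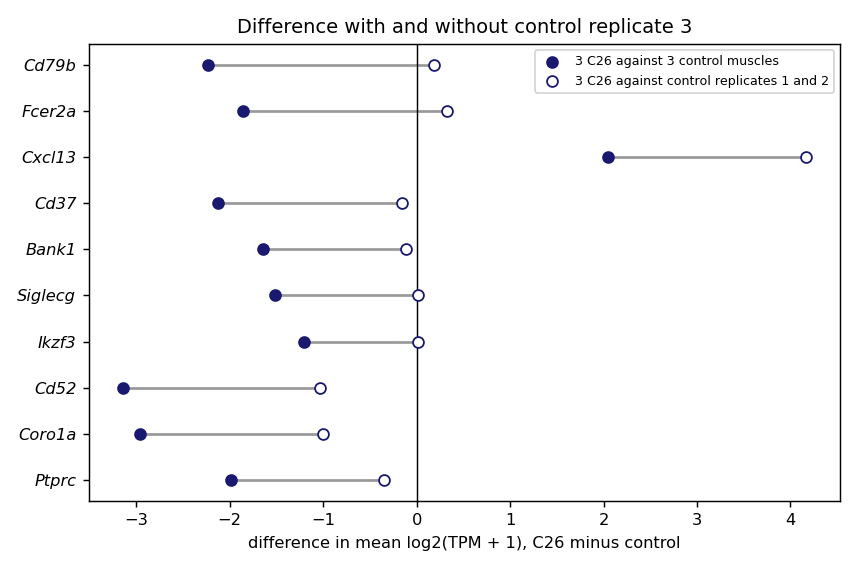
Points give the difference in mean log2(TPM + 1), C26 minus control, for each gene, filled with all 6 muscles and open without control replicate 3. The open points of Cd79b, Fcer2a, Ikzf3 and Siglecg lie above 0 and their filled points below it.

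Of the 10 genes, 6 overlap another annotated gene, and the sources used here do not say whether strand was used in counting. Cd37 overlaps Tead2, which was at 1.49 FPKM in control replicate 3 and 0.78 to 1.35 FPKM in the other muscles. Coro1a overlaps Bola2, which was at 90.61 FPKM in control replicate 3 and 36.87 to 51.29 FPKM in the others. Cd52 overlaps Crybg2, Bank1 the antisense gene Gm31243, Ikzf3 the small nuclear RNA gene Gm25106 and Ptprc A130071D04Rik. Cd79b, Fcer2a, Cxcl13 and Siglecg overlap none.

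By the root mean square distance between log2 profiles over the 6 muscles, the genes most like the average of the 10 were Cd83 at 0.28, Napsa, Rac2 and Gimap3 at 0.32, Ptpn6 at 0.35, Il2rg at 0.36, Lcp1 at 0.39 and B4galnt1 at 0.40. Cd83, an activation marker of B cells and dendritic cells, was at 0.12 to 0.70 FPKM in 5 muscles and 39.89 FPKM in control replicate 3. Rac2, a GTPase of blood cells, was at 0.16 to 0.88 FPKM and 52.65 FPKM in the same muscles. Among the 10, Ptprc lay nearest to their average at 0.32, and Cxcl13 lay farthest at 2.02, with 4502 genes closer.

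Other genes of the same cells were taken from lists that hold none of the 10. Of 38 other B cell genes 13 were listed. Cd79a and Ms4a1 were not among the listed genes and were not analysed here. Listed genes had a value above 0 in every muscle, so the counts cover only such genes. The 13 summed to 5.10 to 8.30 FPKM in C26 muscles, 20.0 and 16.0 FPKM in control replicates 1 and 2, and 160 FPKM in control replicate 3, which was highest for 13 of 13. By limma with Benjamini-Hochberg adjustment, 2 of the 13 were lower in C26 and 0 higher, beside 14.5% (1932) and 19.4% (2589) of all listed genes. At an unadjusted p under 0.05 the numbers were also 2 and 0, beside 2944 and 3353 of the 13363 genes. With the FPKM as deposited, 2504 genes were lower and 1678 higher. The median log2 difference of the 13 was -1.31, and -0.24 without control replicate 3.

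The 2 that fell were Ebf1 and Rasgrp3, and both are also made outside B cells: Ebf1 acts in fat and stromal cells, and Rasgrp3, an activator of Ras, in blood vessel endothelium. Ebf1 was at 1.29, 1.18 and 1.11 FPKM in C26 and at 5.23, 2.77 and 5.74 FPKM in control muscles, with no overlap. Its log2 difference was -1.31 ± 0.21 (SE, limma with Benjamini-Hochberg adjusted p = 0.00794), and -1.18 without control replicate 3. Rasgrp3 was at 1.95, 0.95 and 3.41 FPKM in C26 and at 9.90, 9.94 and 12.04 FPKM in control muscles, also without overlap, and its log2 difference was -1.96 ± 0.36 (SE, limma with Benjamini-Hochberg adjusted p = 0.0108), and -1.92 without control replicate 3. In neither gene did control replicate 3 stand far from the other controls, and both stayed past the threshold whichever muscle was left out. Of the other genes, Cd83, described above, had the highest mean level. Next came Mzb1, a chaperone of antibody-secreting cells, at 0.60 to 1.75 FPKM in 5 muscles and 21.18 FPKM in control replicate 3, and Blnk, a B cell receptor adaptor, at 0.21 to 0.84 and 15.26 FPKM. Without control replicate 3, 2 genes were lower and 1 higher, beside 14.7% and 16.7% of all genes. The higher one was Bach2, a repressor in B and T cells, at 0.87, 0.78 and 0.76 FPKM in C26 and at 0.16, 0.18 and 2.22 FPKM in control muscles. With all muscles its groups overlapped and its log2 difference was 0.36 ± 0.47 (SE), which did not pass.

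Of 38 T cell genes 12 were listed, and control replicate 3 was highest for 12 of 12. In the list, 1 was lower in C26 and 0 were higher by limma, beside 14.5% and 19.4% of all listed genes. At an unadjusted p under 0.05 the numbers were 3 and 0, beside 2944 and 3353 of all 13363. The median log2 difference of the 12 was -0.95, and -0.23 without control replicate 3. Thy1, which marks T cells and also fibroblasts and nerve, was at 0.78, 0.40 and 1.2 FPKM in C26 and at 6.44, 4.42 and 32.87 FPKM in control muscles, without overlap. Its log2 difference was -2.79 ± 0.67 (SE, limma with Benjamini-Hochberg adjusted p = 0.0217), and -2.01 without control replicate 3, with limma adjusted p from 0.0113 to 0.0734 over the alternatives. No T cell gene passed when C26 replicate 1, C26 replicate 2 or control replicate 1 was left out. Over all 13363 genes, 669, 946 and 726 were lower in those fits, against 1932 with all muscles. Without control replicate 3, 2 T cell genes were lower, beside 1959 of all genes. Cd4, the co-receptor of helper T cells, was at 0.02 to 0.10 FPKM in 5 muscles and 10.54 FPKM in control replicate 3. Satb1, a chromatin organiser of thymocytes, differed less, at 7.12 to 13.08 FPKM in 5 muscles and 18.92 FPKM in control replicate 3. Gimap3, Gimap4 and Gimap6 were at 37.83, 26.10 and 51.04 FPKM in control replicate 3, and reads may be shared within this gene family.

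Of 27 lymph node genes 15 were listed, and control replicate 3 was highest on the log2(TPM + 1) scale for 10. Nfkb2 was highest there in FPKM alone, at 18.31 FPKM against 15.92 FPKM in C26 replicate 1. Ccl21a, the T zone chemokine, was at 2.09, 1.03 and 2.16 FPKM in C26 and at 7.47, 11.73 and 224.31 FPKM in control muscles, without overlap. Ccl21a has near-identical copies and its value is uncertain. Clu, which follicular dendritic cells make among other cells, was at 3.37 to 10.62 FPKM in 5 muscles and 133.86 FPKM in control replicate 3. Mfge8, a bridge protein for dying cells, was at 21.92 to 48.49 FPKM and 125.97 FPKM in the same muscles. Ltbr, the lymphotoxin receptor of stromal cells, was lowest in control replicate 3, at 9.84 FPKM against 10.97 to 14.97 FPKM in the other muscles. By limma, 1 gene was lower in C26 and 0 were higher, beside 14.5% and 19.4% of all listed genes. At an unadjusted p under 0.05 the numbers were 2 and 1, beside 2944 and 3353 of all 13363. The median log2 difference of the 15 was -0.22, and -0.13 without control replicate 3. Cxcl12, a chemokine that stromal cells make in many tissues, muscle included, was at 8.02, 7.94 and 7.55 FPKM in C26 and at 26.22, 18.76 and 27.63 FPKM in control muscles. It fell by 1.33 ± 0.14 on the log2 scale (SE, limma with Benjamini-Hochberg adjusted p = 0.00309), and its difference was -1.27 without control replicate 3. The limma adjusted p of Cxcl12 ran from 0.00281 to 0.0217 over the alternatives, leaving out each muscle among them.

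Of 40 genes of white blood cells in general 38 were listed. Control replicate 3 was highest for 38 of 38 and over 4-fold above each other muscle for 30. Tmsb4x, the abundant thymosin that binds actin, was at 229.48, 223.97 and 194.70 FPKM in C26 and at 489.72, 299.79 and 1331.29 FPKM in control muscles. Arhgdib was at 2.07 to 5.61 FPKM in 5 muscles and 131.39 FPKM in control replicate 3. Laptm5, a lysosomal protein of blood cells, was at 1.51 to 4.63 FPKM and 73.28 FPKM, and Cotl1, an actin-binding protein, at 2.26 to 6.42 FPKM and 72.05 FPKM. In these 4 genes control replicate 1 came next, and Tmsb4x had the narrowest distance. By limma, 2 of the 38 were lower in C26 and 0 higher, beside 14.5% and 19.4% of all listed genes. At an unadjusted p under 0.05 the numbers were 5 and 0, beside 2944 and 3353 of all 13363. The median log2 difference of the 38 was -1.43, and -0.29 without control replicate 3. The 2 that passed were Wipf1, an actin regulator, at -1.45 ± 0.42 (SE, limma with Benjamini-Hochberg adjusted p = 0.0390) and Lsp1, an actin-binding protein, at -1.65 ± 0.51 (SE, limma with Benjamini-Hochberg adjusted p = 0.0485). Wipf1 was at 1.31 to 1.44 FPKM in C26 and at 4.28, 2.96 and 12.58 FPKM in control muscles, and Lsp1 at 7.50 to 9.49 FPKM and at 24.59, 17.14 and 83.92 FPKM, neither with overlap. Without control replicate 3 the log2 difference was -0.94 for Wipf1 and -1.03 for Lsp1. Adjusted p from limma over the alternatives ran from 0.0126 to 0.112 for Wipf1 and from 0.0176 to 0.135 for Lsp1. No gene of the list passed without C26 replicate 1, 2 or 3 or without control replicate 1. Over all 13363 genes, 669, 946, 2160 and 726 were lower in those fits. Without control replicate 2 or 3, 4 genes of the list were lower, beside 1402 and 1959 of all genes.

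**Figure D4:**
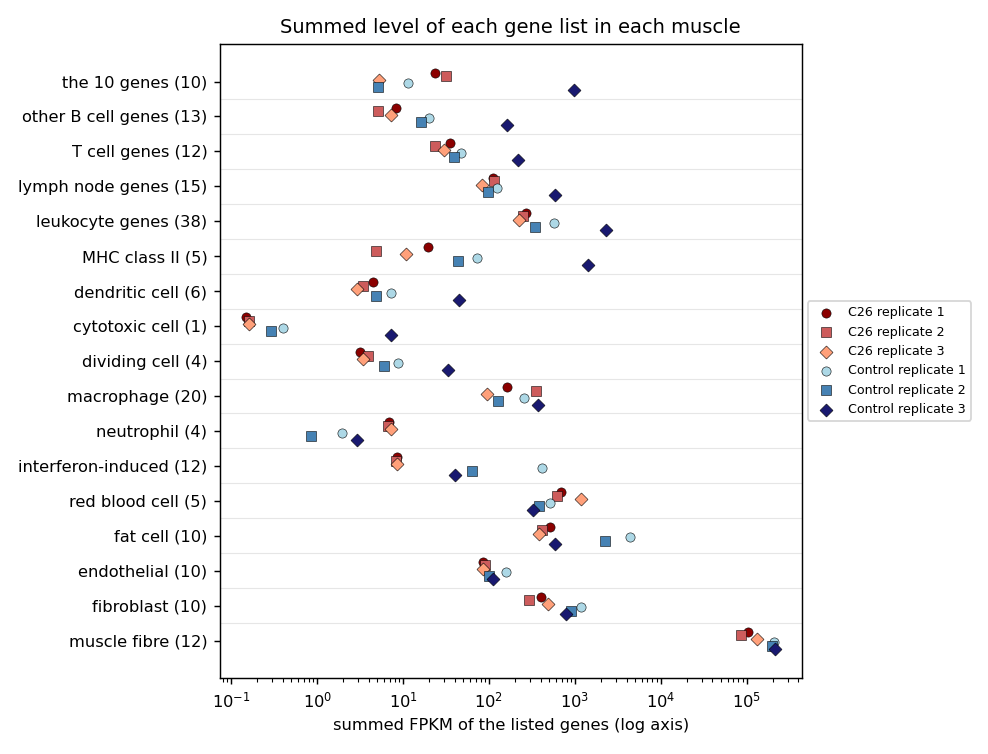
Each point is the summed FPKM of the listed genes of a list in 1 muscle on a log axis, with the number of genes in brackets. Control replicate 3 is far to the right for the 10 genes (966 FPKM against at most 31.7) and for MHC class II (1408 against at most 72.6), and is not the highest for red blood cell or fat cell genes.

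The markers of other cells did not all move with the 10 genes. The 10 summed to 23.7, 31.7 and 5.20 FPKM in C26 and to 11.4, 5.15 and 966 FPKM in control muscles. The 5 MHC class II genes, which present antigen on B cells, dendritic cells and macrophages, summed to 19.5, 4.89 and 10.8 FPKM in C26 replicates 1 to 3. In control replicates 1 to 3 they summed to 72.6, 43.6 and 1408 FPKM. For 4 of the 5, every control value was above every C26 value, beside 26.5% of all listed genes. By limma 0 were lower with all muscles and 3 without control replicate 3, beside 14.5% and 14.7% of all listed genes. Their median log2 difference was -3.23, and -1.85 without control replicate 3. The 6 dendritic cell markers summed to 2.93 to 7.20 FPKM in 5 muscles and 45.3 FPKM in control replicate 3, of which Irf8, a factor also made by B cells, gave 36.76 FPKM. The 4 genes of dividing cells summed to 3.11 to 8.68 FPKM and 33.5 FPKM. The 20 macrophage markers summed to 93.7 to 351 FPKM in 5 muscles and 368 FPKM in control replicate 3, which was highest for 6 of them. Single genes carried these sums: Cd68 gave 246.65 FPKM in C26 replicate 2 and Lyz2 gave 187.74 FPKM in control replicate 3. The 5 red blood cell genes had their lowest sum in control replicate 3, at 329 FPKM against 378 to 1189 FPKM. The 10 fat cell genes summed to 582 FPKM there, against 4427 and 2241 FPKM in control replicates 1 and 2 and 378 to 515 FPKM in C26 muscles. Fabp4 gave 443.04 FPKM of that sum in control replicate 3. Adipoq, the fat cell hormone adiponectin, was at 11.54 FPKM there, between the 0.18 to 3.11 FPKM of C26 muscles and the 79.29 and 176.42 FPKM of the other controls. The 10 fibroblast genes summed to 294 to 492 FPKM in C26 muscles and to 1183, 899 and 784 FPKM in control replicates 1 to 3, control replicate 3 being the lowest control. By limma with Benjamini-Hochberg adjustment 7 of the 10 were lower in C26 and 0 higher, beside 14.5% and 19.4% of all listed genes. At an unadjusted p under 0.05 the numbers were 9 and 0, beside 2944 and 3353 of all 13363. The median log2 difference was -1.95. Ebf1, Thy1 and Cxcl12 differed in this direction, as did the medians of the fat cell genes (-3.83) and the interferon-induced genes (-2.34). Fibroblast genes lower numbered 3 when C26 replicate 1 or 2 or control replicate 1 or 2 was left out, beside 669, 946, 726 and 1402 of all 13363. Without control replicate 3 they numbered 6, beside 1959. The 10 endothelial genes summed to 84.9 to 89.5 FPKM in C26 and 99.0 to 156 FPKM in control muscles, with 2 of 10 lower in C26 beside 14.5% of all listed genes. The 2 were Kdr and Emcn, and the median log2 difference of the 10 was -0.27. None of the endothelial genes passed when C26 replicate 1 or 2 or control replicate 1 or 2 was left out, and 4 were lower without control replicate 3. The numbers over all genes in these fits are those given for the fibroblast genes. The part of these cells in the results was not tested.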

How the data were processed

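RNA of 3 C26 and 3 control gastrocnemius muscles was measured. The authors deposited FPKM values per Entrez gene, to 2 decimals; no value was at 0 and the lowest was 0.01. The study's methods name Bowtie2 to GRCm38.p5 and RSEM, whereas the submitters' processing notes list HISAT2 2.0.4, Bowtie2 2.2.5, RSEM 1.2.12 and mm9. The labels' extraction text names another cell type than muscle. Read counts were not analysed here, and FPKM summed to 531061 to 688300 per muscle.

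Groups came from the labels. The genes and lists were chosen with earlier results of these data known. Symbols came from the RefSeq GRCm38.p6 table (13327 of 13363 matched, 36 not), positions from GENCODE on GRCm38. FPKM was rescaled to TPM and divided by unweighted trimmed-mean factors (30% of log ratios and 5% of means trimmed, factors 0.903 to 1.08), and log2(TPM + 1) was fitted with limma 3.58.1 in R 4.3.3, C26 against control, with Benjamini-Hochberg adjustment over 13363 genes and a threshold of 0.05. No filter was applied here, but the deposited genes all had a value above 0 in every muscle. Counts and shares cover only those genes. Not listed were 25 of 38 B cell, 26 of 38 T cell and 12 of 27 lymph node genes, against 2 of 40 leukocyte genes. Beside the 10 genes, the text names from each list the 5 genes of highest mean FPKM and up to 5 that passed with the largest change, and the 8 genes of nearest profile; others named were chosen after their values were seen. Cell markers outside the 4 tested lists serve as context. The results were recomputed with 0.1 in place of 1 as the pseudocount, with genes under a mean TPM of 1 removed, without the trimmed-mean factors, on the FPKM as deposited, after quantile normalization, with a replicate block and without each muscle in turn. The fit was tested on simulated data with the same spread for all genes and no muscle set apart. That test does not cover genes with an outlying muscle, as here. Tables and figures used Python 3.11.15, pandas 2.3.3, numpy 2.4.6 and matplotlib 3.10.9.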

Additional observations from a re-analysis of the deposited data

How the results depend on the processing

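Of 120 values of the 10 genes under the alternatives, 116 kept their direction and 4 reversed, all without control replicate 3. Leaving out each muscle gave -3.5 to 0.19 for Cd79b, -2.96 to 0.32 for Fcer2a, -1.84 to 0.01 for Ikzf3 and -2.28 to 0.02 for Siglecg, the upper ends being those without control replicate 3, and 0.96 to 4.17 for Cxcl13. A pseudocount of 0.1 gave -2.8 for Bank1, -2.12 for Ikzf3, -2.3 for Siglecg and 3.27 for Cxcl13, over 1.5 times the values at 1. Over all listed genes, 1932 were lower and 2589 higher in C26. The FPKM as deposited gave 2504 and 1678, with a median log2 difference of -0.14 against -0.05, and the replicate block gave 1235 and 1839. Leaving out a muscle gave 669 to 2160 lower and 1127 to 3311 higher, lowest without C26 replicate 1 and highest without C26 replicate 3. T cell genes lower in C26 numbered 2 with the FPKM as deposited, a pseudocount of 0.1 or quantile normalization, and 0 to 2 when a muscle was left out. Leukocyte genes lower numbered 3 with a pseudocount of 0.1, 0 with the FPKM as deposited, 1 without scaling factors and 1 with the replicate block, and 0 to 4 when a muscle was left out. Lymph node genes lower numbered 2 with a pseudocount of 0.1 or the mean TPM filter and 1 to 2 when a muscle was left out. Those higher numbered 1 with quantile normalization and 0 to 1 when a muscle was left out. B cell genes higher numbered 0 to 1 when a muscle was left out. The causes were not tested. The genes apart in control replicate 3 numbered 321 with a pseudocount of 0.1 and 192 with the FPKM as deposited. That count and these alternatives were chosen after seeing the data. Deviations of samples with the same replicate number correlated at -0.04, -0.08 and -0.11, so the numbers were not taken to pair the muscles. With 3 muscles a group and 1 control apart, the control spread of the 10 genes is that of 1 muscle. Depth is unknown.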

Other observations

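Of the 207 genes over 4-fold above every other muscle in control replicate 3, 64 were among the 10 genes or in a list, and 143 were in none. Of the 143, those of widest margin, chosen after their values were seen, included Hvcn1, a proton channel of B cells, at 66.71 FPKM against at most 1.24 FPKM in the other muscles. B4galnt1, a ganglioside synthase, was at 39.88 FPKM against at most 0.46 FPKM. H2-Ea, an MHC class II chain, was at 452.88 FPKM against at most 27.13 FPKM. Of the listed class II genes, Cd74, the invariant chain, was at 1143.01 FPKM there. It was at 53.62 and 35.16 FPKM in control replicates 1 and 2 and at 3.79 to 15.49 FPKM in C26 muscles.

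Cd68, a lysosomal protein of macrophages, had the same order as Cxcl13 among the C26 muscles, a likeness noticed after the values were seen. Mertk, Fcer1g and Fcgr1, also among the 20 macrophage markers, had this order as well. Of the 20, 3 were lower in C26 and 0 higher by limma after adjustment, beside 14.5% and 19.4% of all listed genes. At an unadjusted p under 0.05 the numbers were 5 and 2, beside 2944 and 3353 of all 13363. Their median log2 difference was -0.34. When a muscle was left out 1 to 2 were lower, beside 669 to 2160 of all genes. Without C26 replicate 3, 1 was lower and 2 were higher, beside 2160 and 3311. Quantile normalization gave 1 lower and 1 higher, beside 1574 and 2242. Cd68 was at 34.85, 246.65 and 6.46 FPKM in C26 replicates 1 to 3 and at 4.75, 1.75 and 5.77 FPKM in control replicates 1 to 3. Control replicate 3, the highest muscle for Cxcl13, was near control replicate 1 for Cd68. The 12 listed interferon-induced genes stood apart in another control: they summed to 413 FPKM in control replicate 1, 63.6 and 40.1 FPKM in control replicates 2 and 3, and 8.24 to 8.57 FPKM in C26 muscles.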
